A study of Urocitellus parryii with 3 samples.

Results

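The microRNA miR-21 was followed in livers of Urocitellus parryii, the arctic ground squirrel, a hibernating rodent. It was taken as all miRNA spots whose gene name in the scanner output is mmu-miR-21, which is 1 of 577 miRNA entries on the array and 1 of the 135 mouse miRNAs measured on all 3 arrays. The livers came from 3 stages: early arousal, when a torpid animal begins to rewarm; late torpor, the cold and inactive state of hibernation; and post-reproduction, outside the hibernation season. All were livers of this wild species with no stated genetic change or treatment. Total RNA of the animals of a stage was mixed in equal amounts into 1 pool, which was labelled with the dye Cy3 and put on 1 Agilent mouse miRNA array. The number of animals in a pool, their age and their sex are not given in the sources used here. With 1 array per stage no difference has a replicate check and no test between stages was made, so the number of arrays limits the precision.

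MicroRNAs are short RNAs that pair with messenger RNAs and lower their translation or stability. miR-21 is made by many cell types, its transcription is driven by factors such as AP-1 and STAT proteins, and one of its well studied target messages encodes the growth brake Pdcd4. In mammalian liver it is known for its increase in regeneration, inflammation, fibrosis and cancer. Its hairpin lies at the end of the gene Vmp1 in mouse and human. Its star strand, miR-21*, is the usually less stable opposite arm of the same hairpin, and miR-590-5p is the miRNA of another hairpin that shares its seed, the stretch that pairs with targets.

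Per the file annotation, both miR-21 probes address the same stretch of mouse chromosome 11 in build mm9. One probe has a 20-base target, chr11:86397622-86397641, and the other a 19-base target, chr11:86397622-86397640, so they differ by 1 base at 1 end and are not independent of each other. Each probe had 10 spots on each array. The spots of 1 array are repeats of the same hybridisation, so their spread covers spotting and reading and not animals. How well probes designed for mouse pair with the squirrel's own miR-21 was not tested.

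miR-21 was well above background at every kept spot of both probes at all 3 stages. On the 20-base probe the processed intensity, before any scaling between arrays, ranged from 1762 to 1959 with a median of 1870 in early arousal (9 kept spots). It ranged from 2245 to 2390 with a median of 2322 in late torpor (8 spots), and from 1840 to 2016 with a median of 1979 in post-reproduction (10 spots). On this probe every late torpor spot lay above every spot of the other stages, and the early arousal and post-reproduction spots overlapped.

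On the 19-base probe, with 10 spots at each stage, the intensity ranged from 574.4 to 615.7 with a median of 589.5 in early arousal. It ranged from 589.0 to 659.3 with a median of 624.1 in late torpor, and from 562.4 to 590.4 with a median of 577.8 in post-reproduction. Late torpor was again the highest in its median, but here the ranges of all 3 stages overlapped. The negative control spots had a median intensity of 1.36 in early arousal and 1.69 in late torpor, against 1.21 in post-reproduction. miR-21 therefore stood far above background, and no spot of it was saturated.

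**Figure D1:**
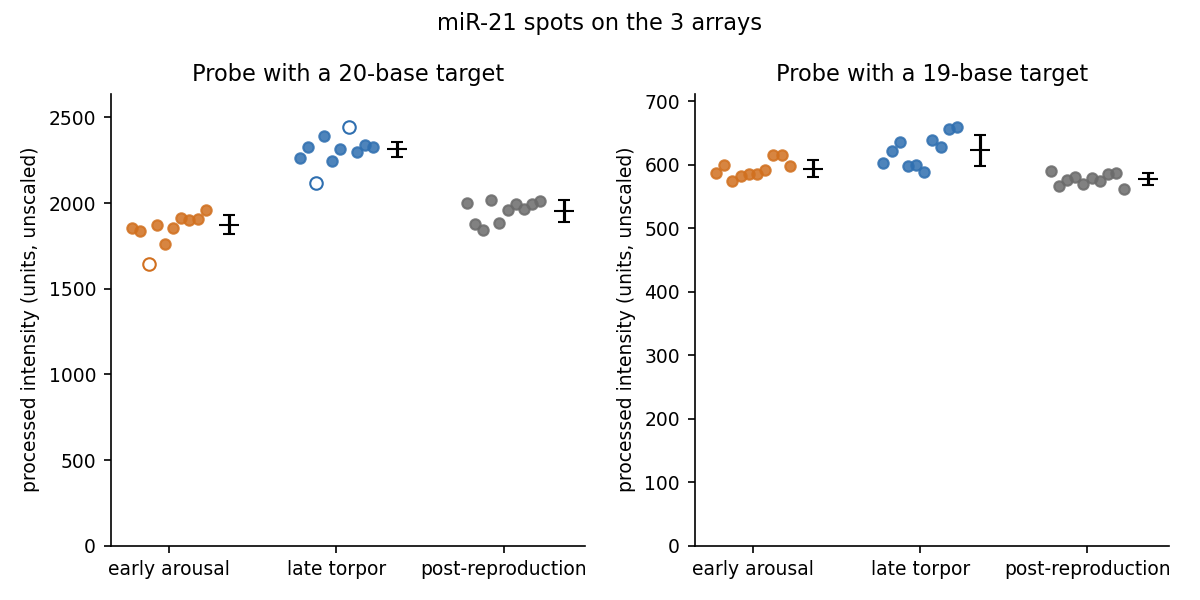
Processed intensity (linear axis from 0, unscaled) of each miR-21 spot on the early arousal, late torpor and post-reproduction arrays, for the probe with the 20-base target (left) and the probe with the 19-base target (right). Filled points are kept spots, open points are spots marked as outliers and left out, and the bar beside each group is the mean with the SD of kept spots; late torpor is highest on both probes, without overlap on the left and with overlap on the right.

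The spread between spots was small. The coefficient of variation of kept spots was 2.99% in early arousal and 1.95% in late torpor, against 3.25% in post-reproduction on the 20-base probe, and 2.31%, 3.98% and 1.56% on the 19-base probe in the same order. The scanner program's own error model was wider and assigned 10% to each spot. Its summary over both probes, the total gene signal, was 1753 ± 140 in early arousal and 2103 ± 172 in late torpor, against 1810 ± 146 in post-reproduction (± the program's error).

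The 2 probes did not keep a fixed ratio. The 20-base probe was 3.16 times as bright as the 19-base probe in early arousal and 3.72 times in late torpor, against 3.39 times in post-reproduction. On the log2 scale these ratios were 1.66 ± 0.02, 1.90 ± 0.02 and 1.76 ± 0.02 (SE from spots), so they differed between arrays by more than the spot spread. The same probe lies at the same positions on each array, which allowed spots to be matched by position.

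Between late torpor and post-reproduction, late torpor was brighter at 8 of 8 matched positions of the 20-base probe and at 10 of 10 of the 19-base probe, before scaling. Between early arousal and late torpor, early arousal was brighter at 0 of 8 and 0 of 10 positions. Between early arousal and post-reproduction the probes went opposite ways, with early arousal brighter at 0 of 9 positions of the 20-base probe and at 8 of 10 of the 19-base probe. The order with late torpor highest thus held on both probes. Early arousal and post-reproduction had no order that both probes shared before scaling, whereas after scaling early arousal was higher at 9 of 9 and 10 of 10 positions.

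miR-21 was among the bright entries at every stage. By the mean of its probes it ranked 11th of 152 detected mouse miRNAs in early arousal and 10th of 158 in late torpor, against 12th of 143 in post-reproduction. Its total gene signal was 1.53%, 1.64% and 1.49% of the signal summed over all mouse entries in the same order. Brightness also depends on how well a probe binds, so these ranks are not an order of abundance. They do show that the place of miR-21 among the entries moved little from array to array.

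To compare stages, the 75th percentile of the 250 probes detected on every array was subtracted on the log2 scale. It stood at 350.4 intensity units for the early arousal array, at 349.1 for the late torpor array and at 398.3 for the post-reproduction array. On that scale miR-21 stood at a log2 value of 1.59 in early arousal and 1.78 in late torpor, against 1.41 in post-reproduction. Scaling alone added 0.19 to both comparisons with post-reproduction, more than the size of the unscaled difference of miR-21 in either. Each comparison is therefore also given against the median difference of all 135 measured mouse miRNAs, which takes out any scaling that shifts a whole array.

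The first comparison asked how late torpor differed from post-reproduction. miR-21 was higher in late torpor by a scaled log2 difference of 0.37 ± 0.01 (SE from spots), or 1.29-fold with a 95% interval from spots of 1.27 to 1.31, but its sign turned when each array was scaled on all probes with spots at or below 0 left out (-0.071). The 20-base probe alone gave 0.43 and the 19-base probe 0.30, a gap that the interval from spots does not cover. The unscaled difference was 0.18. Against the median of all measured miRNAs, 0.13, miR-21 lay 0.24 higher.

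miR-21 took place 32 of 135 in this comparison, counted from the miRNA highest in late torpor, so 76.3% of the measured miRNAs lay below it. It did not pass the rule of size, a log2 difference of at least 1 (2-fold) that exceeds 2 SE and has the same sign in each probe, which 2.22% of measured miRNAs passed (3 of 135). Its distance from the median was itself the median distance over all measured miRNAs, with 67 lying farther out. Its neighbours in the order were miR-652 (scaled difference 0.40), miR-340-3p (0.38) and miR-148a (0.37) just above, and miR-20b, miR-29a and miR-574-5p (each 0.36) just below. By the program's error model, the difference of total gene signal was 0.22 unscaled with a 95% interval of -0.11 to 0.54, which spans 0.

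The second comparison set early arousal against post-reproduction. The scaled difference of miR-21 was 0.17 ± 0.01, or 1.13-fold (1.11 to 1.15 from spots), but unscaled it was -0.011 and it was also below 0 under 5 of the other alternatives. The probes gave 0.12 (20-base) and 0.23 (19-base) after scaling, and -0.061 and 0.040 before it. No direction can be given for miR-21 in this comparison apart from its place among other miRNAs.

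Against the median of all measured miRNAs, 0.062, miR-21 lay 0.11 higher, and it took place 51 of 135. It did not pass the rule of size, which 3.7% of measured miRNAs passed (5 of 135), and 104 miRNAs lay farther from the median than it did. Just above it were miR-361 (0.19), miR-144 (0.18) and miR-652 (0.18), and just below it miR-192 (0.16), miR-106b and miR-10a (each 0.15). The program's error model gave -0.046 for the unscaled total gene signal, with a 95% interval of -0.37 to 0.27.

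The third comparison was within the hibernation season, of early arousal against late torpor. The scaled difference of miR-21 was -0.19 ± 0.01, and it was below 0 under all 13 alternatives, from -0.44 to -0.040. These 2 arrays had nearly equal scaling values, so the unscaled difference was also -0.19. The probes disagreed most here: the 20-base probe gave -0.31 and the 19-base probe -0.073, a gap of 0.24 that is larger than the mean difference. Of the 105 miRNAs with at least 2 measured probes, 9 had a wider gap in this comparison, and the median gap was 0.064.

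Against the median of all measured miRNAs, -0.094, miR-21 lay at -0.098. It took place 91 of 135 and did not pass the rule of size, which 2.96% of measured miRNAs passed (4 of 135). Just above it were miR-99b (-0.17), miR-25 (-0.17) and miR-30e* (-0.19), and just below it miR-122 (-0.20), miR-532-5p (-0.21) and miR-146a (-0.21). The program's interval for the unscaled total gene signal, -0.58 to 0.061, spans 0 here as well.

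**Figure D2:**
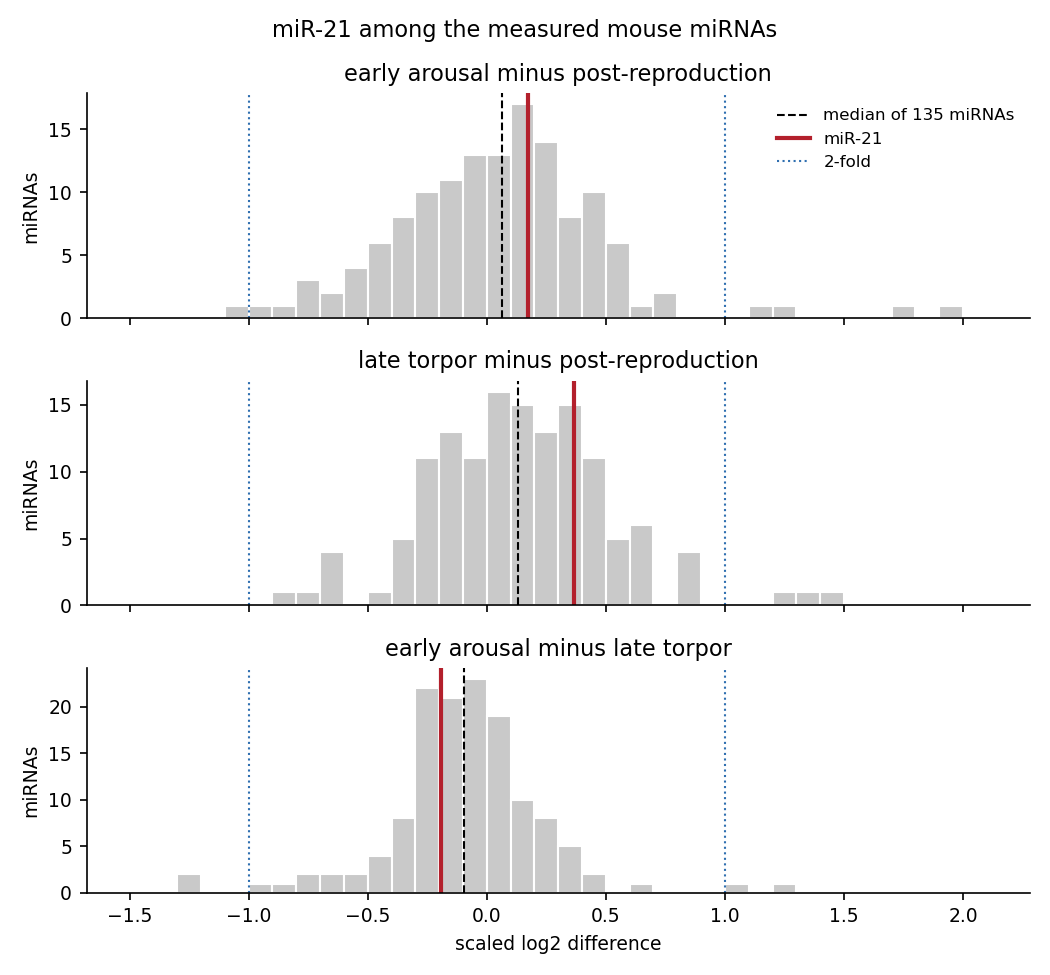
Distribution of the scaled log2 differences of the 135 measured mouse miRNAs in each comparison (bars count miRNAs), with miR-21 as a solid line, the median of all miRNAs dashed and 2-fold differences dotted. miR-21 lies inside the bulk of each distribution, at 0.17, 0.37 and -0.19 from top to bottom.

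Of the 13 alternatives, 5 shift whole arrays and leave the distance of miR-21 from the median as it was by construction, so the other 8 alone can move it. miR-21 was above the median in both comparisons with post-reproduction and below it in early arousal against late torpor under each of these 8. The distance ranged from 0.19 to 0.26 for late torpor against post-reproduction, from 0.068 to 0.12 for early arousal against post-reproduction, and from -0.18 to -0.094 for early arousal against late torpor. miR-21 passed the rule of size under none of the alternatives, in any comparison.

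**Figure D3:**
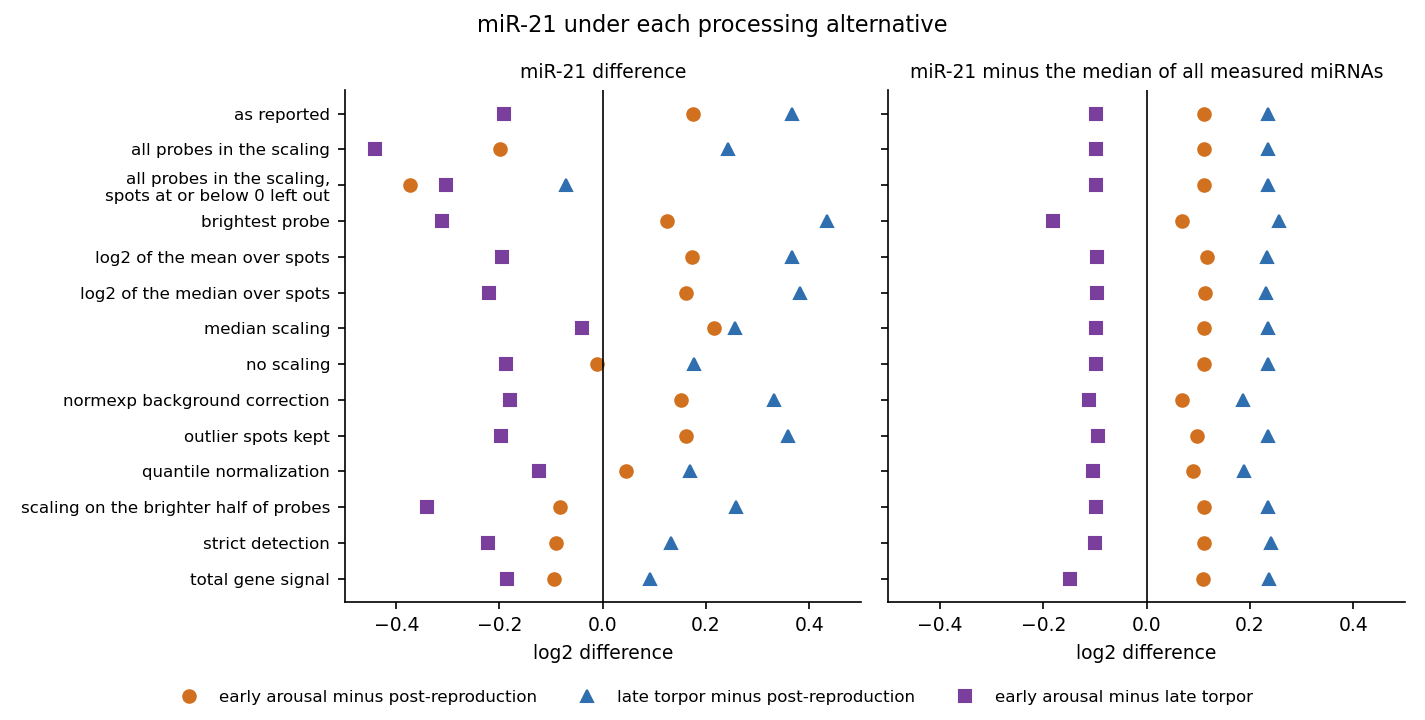
Scaled log2 difference of miR-21 in the 3 comparisons (left) and the same minus the median of all measured miRNAs (right), as reported (top row) and under 13 processing alternatives (other rows). On the left early arousal minus post-reproduction lies on both sides of 0, from -0.37 to 0.22, while on the right, where 5 of the alternatives cannot move a point, each comparison keeps its side of 0.

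The miRNAs whose pattern over the 3 arrays was most like that of miR-21 were sought by the distance between values centred on each miRNA's own mean, which a shift of whole arrays does not change. This describes 3 arrays only. The nearest was miR-122, the main miRNA of hepatocytes, at a distance of 0.024, against a median distance of 0.29 over the other 134 miRNAs. By the mean of its probes miR-21 had 1054, 1200 and 1062 intensity units on the early arousal, late torpor and post-reproduction arrays. miR-122 had 33094, 37937 and 34109 on the same arrays. In both miRNAs late torpor was the brightest array and the others were nearly equal before scaling.

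Averaged over 2 probes each, their differences ran side by side. In late torpor against post-reproduction the scaled difference was 0.37 for miR-21 and 0.34 ± 0.03 for miR-122, in early arousal against post-reproduction 0.17 and 0.14 ± 0.03, and in early arousal against late torpor -0.19 and -0.20 ± 0.03. These comparisons share arrays and are not separate pieces of evidence. The closeness holds for the mean of the 2 miR-21 probes, which apart gave -0.31 and -0.073 in early arousal against late torpor. Of the 8 alternatives that can change the distance, miR-122 was the nearest under 2 and among the 5 nearest under 6, the exceptions being quantile normalization, where it was 17th, and the brightest probe, where it was 8th.

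The next nearest were miR-532-5p (distance 0.024) and miR-652 (0.028), each with 1 measured probe at no more than 25.2 intensity units, not far above the lowest detected signal. They were followed by miR-106b (0.045) and miR-93 (0.047), which are made from the same cluster in mouse. miR-106b had 87.2, 104 and 89.3 intensity units on the early arousal, late torpor and post-reproduction arrays, and miR-93 had 54.7, 64.5 and 54.6. Before scaling these miRNAs, too, had late torpor highest and the other stages close together. Of the 134 other miRNAs, 10 lay within a distance of 0.1 of miR-21, so its pattern was a common one.

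**Figure D4:**
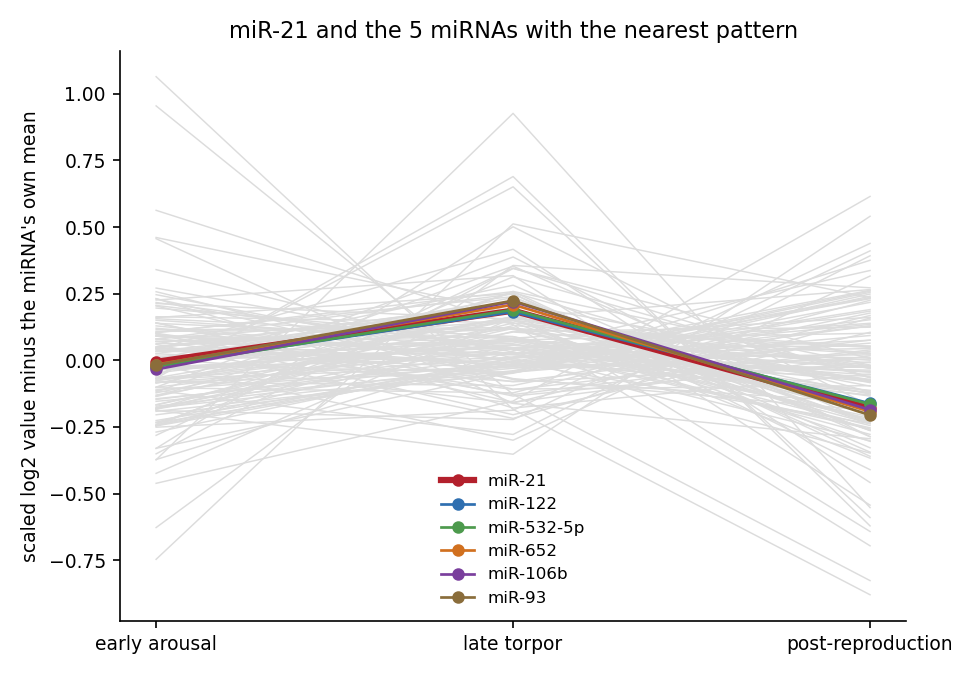
Scaled log2 value minus the miRNA's own mean over the 3 arrays, for miR-21 (thick line), the 5 miRNAs with the nearest pattern (coloured) and all measured mouse miRNAs (grey). miR-21 and its 5 neighbours are highest in late torpor and lowest in post-reproduction on this scale.

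The partners of miR-21 on the array were not detected. miR-21*, with 4 probes whose targets begin at chr11:86397584 and end between 86397595 and 86397598 (mm9), had 0 of 19 kept spots above background in early arousal, 0 of 20 in late torpor, and again 0 of 19 in post-reproduction. Its brightest spots had 5.22, 2.67 and 4.13 intensity units in the same order. miR-590-5p had 0 of 20 kept spots above background at each stage, and its brightest spots had 3.64, 2.64 and 2.46 units. The opposite arm of that hairpin, miR-590-3p, had 0 of 20, 0 of 20 and 0 of 19. Of the hairpin of miR-21, then, 1 arm was detected, and the probes for the other arm had targets of only 12 to 15 bases.

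Other miRNAs known from liver injury, inflammation and stress gave a mixed picture around miR-21. Of 32 such miRNAs listed, 31 were on the array under that name and 24 were measured. miR-155, miR-146b, miR-210, miR-132 and miR-17 were detected on no array, and miR-181b and miR-18a had no probe detected on all arrays. None of the 24 passed the rule of size in any comparison as reported, beside the shares of all measured miRNAs given above, but under 8 of the 13 alternatives at least 1 did, each time with a value below -1. When the scaling took in all probes, miR-34a (-1.27), miR-200b (-1.10) and miR-222 (-1.08) passed in early arousal against post-reproduction, among 8 lower of all 135. In that setting miR-200b (-1.02) also passed in late torpor against post-reproduction, as the 1 lower of all 135. miR-34a (-1.23) passed in early arousal against late torpor, among 5 lower of all 135. With spots at or below 0 also left out, 6 of the 24 passed in early arousal against post-reproduction, among 16 lower of all 135.

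In late torpor against post-reproduction 20 of the 24 lay below miR-21 and 4 above it, beside 103 and 31 of all 134 other measured miRNAs. The 4 were miR-223, a miRNA of myeloid cells, and miR-19a, miR-19b and miR-20a of the miR-17 cluster and its paralogs, which promote cell division. Relative to the median of all measured miRNAs, miR-223 lay at 0.54, miR-19a at 0.44, miR-19b at 0.39 and miR-20a at 0.31, against 0.24 for miR-21. At the other end were the epithelial miRNAs miR-200b (-1.02) and miR-200a (-0.75), then miR-222 (-0.55), a miRNA of endothelium and proliferating cells. miR-146a, which dampens signalling to NF-kappaB, lay at -0.41. The median of the list was -0.048 relative to that of all measured miRNAs.

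In early arousal against post-reproduction 8 of the 24 lay above miR-21 and 16 below, beside 50 and 84 of all others. miR-34a, a target of p53, was the lowest, at -0.96 relative to the median, followed by miR-200b (-0.79) and miR-222 (-0.77). miR-19b (0.52), miR-92a (0.51) and miR-181a (0.41) were the highest. miR-21 at 0.11 lay between these groups, next to miR-223 at 0.12 and miR-212 at 0.14.

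In early arousal against late torpor 15 of the 24 lay above miR-21 and 9 below, beside 90 and 44 of all others. miR-34a was again the lowest at -0.89, and miR-223 followed at -0.39. miR-29a, a miRNA that represses collagen messages, lay at 0.086, and miR-200a was the highest at 0.38. Of the 24, 12 lay farther from the median than miR-21 in late torpor against post-reproduction, beside 67 of all 134 others. The count was 18 beside 104 in early arousal against post-reproduction, and 18 beside 90 in early arousal against late torpor, so the list was close to all measured miRNAs in this respect. After quantile normalization the counts above and below miR-21 were 5 and 19, 7 and 17, and 15 and 9 in the order in which the comparisons are given here. Beside them stood 39 and 95, 54 and 80, and 86 and 48 of all 134 others. With normexp the list counts were 3 and 21, 7 and 17, and 18 and 6. Those of all others were then 20 and 114, 45 and 89, and 110 and 24.

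**Figure D5:**
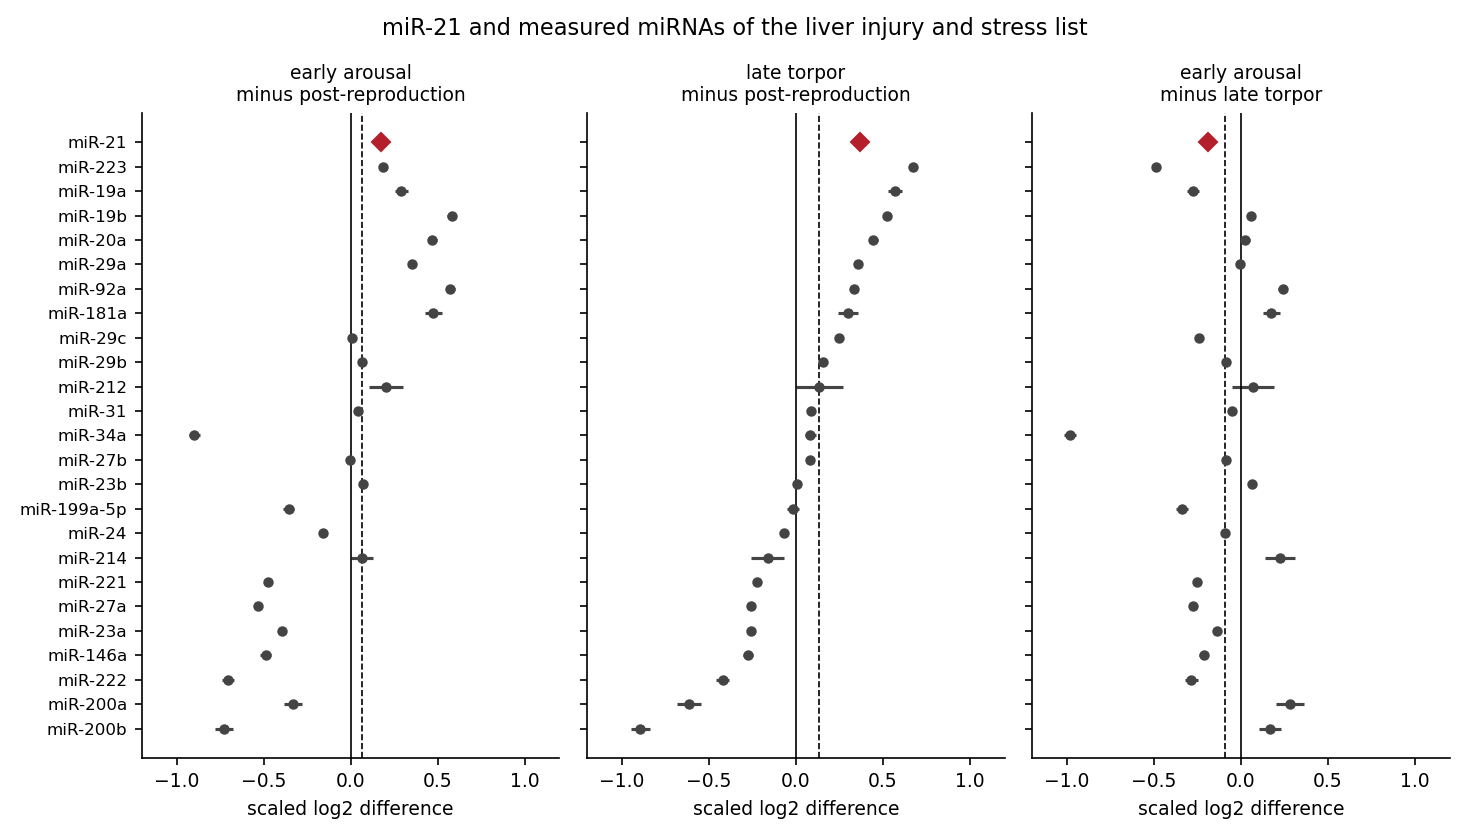
Scaled log2 difference of miR-21 (diamond) and of the 24 measured miRNAs of the liver injury and stress list (points) in each comparison. Bars are SE from spots, the solid line is 0 and the dashed line is the median of all 135 measured miRNAs. The list members are ordered by late torpor minus post-reproduction, and miR-21 is set in the top row outside that order. miR-21 at 0.37 is passed there by 4 members.

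In a bulk sample, fewer cells of a type and less RNA per cell cannot be told apart. The tissue label was checked against 7 miRNAs of hepatocytes, all of which were detected on each array; the muscle and pancreatic lists had no member measured on all arrays and the neural list had 1 of 4. Of the 3 muscle miRNAs, miR-1 was detected in early arousal and miR-1 and miR-133a in late torpor, against none in post-reproduction. The muscle list summed to a total gene signal of 17.7 in early arousal and 27.2 in late torpor, against 12.5 in post-reproduction. The hepatocyte list summed to a total gene signal of 59425 in early arousal and 68006 in late torpor, against 60178 in post-reproduction. Its brightest member by far was miR-122, followed by miR-192. The red blood cell list (3 of 3 measured) summed to 2778, 4615 and 2213 in the same order, and the leukocyte list (6 of 8 measured, with miR-155 and miR-342-3p not detected) to 632, 884 and 721. Like miR-21, the hepatocyte, red blood cell, leukocyte and muscle sums were highest in late torpor, but not all measured members were. Of the hepatocyte list, miR-122, miR-148a and miR-193 were brightest there before scaling. miR-365 and miR-101a were brightest in early arousal (1181 and 618 units, against 986 and 591 in late torpor). miR-194 was brightest in post-reproduction (755 against 674), and miR-192 was level there and in late torpor (1614 and 1613). Of the leukocyte list, miR-223, miR-142-3p, miR-142-5p and miR-150 were brightest in late torpor, miR-181a in early arousal and miR-146a in post-reproduction. The endothelial, neural and pancreatic sums were also highest in late torpor, the last with no member detected. So was the signal summed over all mouse entries, 114580 in early arousal and 127897 in late torpor, against 121813 in post-reproduction. Being highest in late torpor therefore does not by itself set these lists apart, but the size of the difference did so for the red blood cell list. Its members miR-144 (scaled difference 1.48), miR-486 (1.31) and miR-451 (1.24) were the 3 of 135 that passed the rule of size in late torpor against post-reproduction. The mesenchymal and epithelial sums were highest in post-reproduction before scaling.

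For other liver cells, too, the order differed between miRNAs in the endothelial list, and it differed with the scaling in the mesenchymal list. The endothelial list (4 of 4 measured) summed to 1668, 1839 and 1830 units on the early arousal, late torpor and post-reproduction arrays. Of its members, miR-221 (-0.23) and miR-222 (-0.42) had scaled differences below 0 in late torpor against post-reproduction, and miR-126-3p (0.35) and miR-126-5p (0.27) above 0. The mesenchymal list (4 of 5 measured), which stands for stellate and smooth muscle cells, summed to 165, 181 and 203 units, but to 0.472, 0.517 and 0.509 when divided by each array's scaling value. All 4 measured mesenchymal miRNAs lay below miR-21 in late torpor against post-reproduction and in early arousal against post-reproduction, beside 103 and 84 of all 134 others. In early arousal against late torpor 3 of the 4 lay above it, beside 90. The epithelial list (2 of 5 measured, with miR-200c, miR-141 and miR-429 not detected) summed to 64.1, 58.7 and 118 units. What part these cell types have in the values of miR-21 was not tested.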

How the data were processed

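RNA was taken up in TRIzol and mixed by stage before labelling with Cy3, per the labels' protocols. Agilent Feature Extraction 9.5.3.1 read the arrays, per the submitters' processing notes. Per the file headers, the deposited intensity is a spot's signal less a fitted spatial background trend, with no step between arrays, and the deposited flags are other values of that program. The authors' deposited series table equalled it at all 12493 spots of each array (linear, uncentred, medians 1.05 in early arousal and 1.15 in late torpor, against 1.13 in post-reproduction).

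Control and outlier spots were left out. Spots at or below 0 took the lowest value among spots well above background (8.49 to 10.7), and no miR-21 spot was among them. Log2 intensities were averaged over a probe's spots. A probe was detected where over 50% of its kept spots were well above background. Arrays were scaled by the 75th percentile over probes detected on all 3, and a miRNA's probes were averaged. SEs and intervals from spots cover spot spread only, and not the gap between the probes of a miRNA. Scripts ran in Python 3.11.15, with limma 3.58.1 for normexp, and were tested on simulated data. Of the 13 alternatives, 5 only shift whole arrays. Leaving out spots at or below 0 was combined with scaling on all probes, and the total gene signal replaced the summaries over spots and probes and the probes in the scaling together; the others changed 1 choice.

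Named miRNAs were miR-21, its star strand and seed relative, the 5 nearest patterns, the 3 next above and below it in each comparison, and the listed miRNAs. miR-21 and all lists were chosen with earlier results of these data known.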

Additional observations from a re-analysis of the deposited data

How the results depend on the processing

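No paired analysis was possible because each stage had 1 array, and for the same reason no replicate could be left out. Below, the scaled log2 differences of miR-21 are given for late torpor against post-reproduction, early arousal against post-reproduction and early arousal against late torpor, in that order. As reported they were 0.37, 0.17 and -0.19. They were 0.24, -0.20 and -0.44 with all probes in the scaling, and -0.071, -0.37 and -0.30 with all probes and spots at or below 0 left out. Median scaling gave 0.26, 0.22 and -0.040, no scaling 0.18, -0.011 and -0.19, and quantile normalization 0.17, 0.046 and -0.12. Scaling on the detected probes of at least median brightness gave 0.26, -0.082 and -0.34, strict detection (all kept spots above background) 0.13, -0.091 and -0.22, and the total gene signal 0.092, -0.094 and -0.19. The brightest probe, which is the 20-base one, gave 0.43, 0.12 and -0.31, and the 19-base probe alone 0.30, 0.23 and -0.073. Normexp gave 0.33, 0.15 and -0.18. The mean or the median over spots and keeping outlier spots moved each value by at most about 0.027. Shifts of whole arrays leave the place of miR-21 as it was by construction; the cause of the other changes was not tested.

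The place of miR-21 was 32, 51 and 91 of 135 as reported, 40, 55 and 87 after quantile normalization, 21, 46 and 111 with normexp, 27, 56 and 109 with the brightest probe, and 30, 56 and 102 with the total gene signal. The miRNAs past the rule of size were 3 higher and 0 lower in late torpor against post-reproduction, 4 and 1 in early arousal against post-reproduction, and 2 and 2 in early arousal against late torpor. With all probes in the scaling these were 3 and 1, 2 and 8, and 0 and 5. With spots at or below 0 also left out they were 1 and 6, 2 and 16, and 1 and 3. Normexp gave 1 and 0, 2 and 0, and 0 and 0. They were 3 and 1, 3 and 3, and 1 and 3 on the detected probes of at least median brightness, 3 and 2, 2 and 2, and 2 and 2 with strict detection, and 2 and 2, 3 and 3, and 2 and 2 with the total gene signal. Late torpor against post-reproduction had 1 lower with median scaling and without scaling. Early arousal against post-reproduction had 3 lower without scaling and 2 lower after quantile normalization and with outlier spots kept.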
